A study of Mus musculus with 8 samples.

Results

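The 43 genes described here code for proteins that carry a cell from G1 into S phase and copy its DNA: the G1 cyclins and their kinases, Rb1 and the E2F transcription factors, and the factors that load, start and run the replication fork. They were chosen as a list of symbols by function, with earlier results of these data known. All 43 were found among the 50143 Ensembl gene IDs of the count file and passed the filter on low counts, which left 14887 genes. Their RNA was measured in 8 tumours that had grown in mammary gland 4 of female C57BL/6 mice after injection of cells of the mouse breast adenocarcinoma line Py230. All the mice had been ovariectomized at 6 weeks of age. The obese group (4 tumours) came from mice on a high fat diet with 60% of calories from fat (5.1 kcal/g) and the lean group (4 tumours) from mice on a regular diet with 10% (3.6 kcal/g), begun 2 weeks after surgery and kept for 6 weeks before the cells were injected, by which time the former had gained 35% in weight on average. Tumours were taken on day 56. Both groups rest on 1 cell line, and the labels do not say whether each tumour came from a mouse of its own, so the p-values measure the spread between these tumours.

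A cell enters S phase when D cyclins with Cdk4 or Cdk6, and then E cyclins with Cdk2, phosphorylate the retinoblastoma protein Rb1, which frees E2F factors to switch on replication genes. In G1 the origin recognition complex, Cdc6 and Cdt1 load the MCM helicase ring onto DNA, and in S phase Cdc45 and the GINS complex activate that ring. DNA polymerases then copy the strands, held to them by the sliding clamp Pcna, which the RFC clamp loader places. Many of these genes are little expressed in resting cells, so in a tumour their RNA depends on how many cells are cycling as well as on the level in each cell. In bulk tissue, fewer cells of a type and less RNA per cell cannot be told apart.

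Total counts were 25.7 to 66.7 M per library. Values are counts per 1 M counts (CPM) scaled with edgeR's TMM factors. They are given for obese and for lean replicates 1 to 4 in that order, followed by the log2 change, obese minus lean, with its standard error (SE), and the adjusted p of edgeR's quasi-likelihood test, called at 0.05. Gene coordinates are those of whole genes in GRCm38 (GENCODE M21). Obese replicate 3 stood apart from the other obese tumours on the first principal component (12.9, against −136 to −96.5, with lean tumours at 70.2 to 93.7). Of all 14887 genes tested, 59.2% passed, 30.9% higher and 28.4% lower in obese tumours, and every count below is to be read against those shares.

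Replication genes were mostly higher in obese tumours, but the clamp, part of its loader and thymidylate synthase were lower. Of 43 members 33 rose (76.7%, background 30.9%), 4 fell (9.3%, background 28.4%) and 6 did not pass. At least a 2-fold rise was seen for 19 members, and for 17.2% of all tested genes. The median log2 change of the members was 0.86, that of all tested genes −0.04. The 4 obese tumours lay above all 4 lean tumours for 27 members (62.8%, background 28.9%), below them for 4 (background 28.1%), and overlapped for 12, where 57.0% of all tested genes showed no overlap in either direction. The changes ran from −0.98 for Tyms to 3.16 for E2f8. With upper quartile factors the median over all tested genes moved to −0.25 and that of the members to 0.65. A change of factors shifts the log2 changes of all genes nearly alike. The distance between the medians, 0.90 with either scaling, therefore had to stay and is no test of the members' change. With upper quartile factors 28 members rose and 6 fell, while 24.3% of all tested genes were higher. Of the 14887 genes 5145 were then lower, against 4221 with TMM factors.

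**Figure D1:**
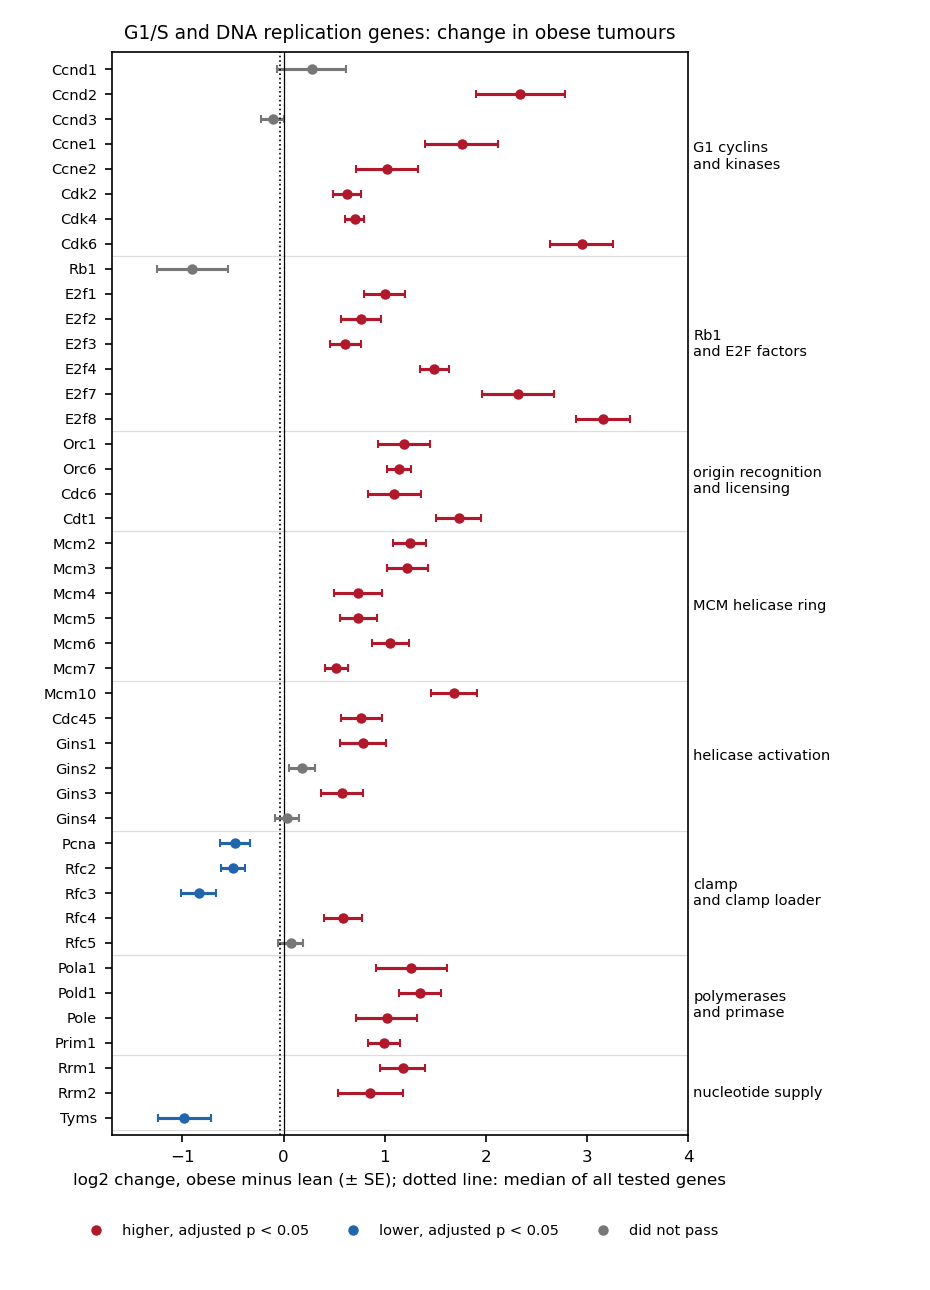
Log2 change (obese minus lean, horizontal axis) with its SE for each of the 43 genes, grouped by role. Red points rose, blue points fell and grey points did not pass an adjusted p of 0.05 (edgeR, 4 against 4 tumours), and the dotted line is the median of all tested genes, −0.04. The only blue points are Pcna, Rfc2, Rfc3 and Tyms.

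The D cyclins, which bind Cdk4 and Cdk6 and link growth signals to the cycle, did not move together. Ccnd2 (ENSMUSG00000000184, chromosome 6, 127125162 to 127152193) stood at 334, 307, 207 and 395 CPM in the obese and 39.1, 121, 53.1 and 32.8 CPM in the lean tumours. Every obese tumour was above every lean one, and Ccnd2 rose by a log2 change of 2.34 ± 0.44, or 5.06-fold (edgeR adjusted p = 0.00350). Ccnd1 (ENSMUSG00000070348, chromosome 7, 144929931 to 144939925), the D cyclin best known from breast cancer, stood at 401, 577, 451 and 576 against 312, 729, 379 and 232 CPM. Lean replicate 2 held the highest value of all 8 tumours, the groups overlapped, and Ccnd1 did not pass (0.28 ± 0.34, edgeR adjusted p = 0.492). Without lean replicate 2 its change was 0.70 and passed (edgeR adjusted p = 0.0260), and with limma-voom and quality weights it was 0.69 and passed (0.0223, over all alternatives 0.0223 to 0.863). Ccnd3 stood at 119, 103, 89.8 and 100.5 against 119.5, 105, 107 and 113 CPM, with wide overlap and no call (−0.11 ± 0.11, edgeR adjusted p = 0.433). With library size only or upper quartile factors Ccnd3 passed as lower (−0.29 and −0.32, edgeR adjusted p = 0.0476 and 0.0393), and with offsets for GC content and exon length its change was 0.10 (adjusted p over all alternatives 0.0393 to 0.810).

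Levels can be compared between genes only per length, here as counts per kilobase of exon scaled to a sum of 1 M over the tested genes. On that scale Ccnd1 made up most of the D cyclin RNA in every tumour, 63.4% to 74.8% in obese and 75.1% to 86.2% in lean tumours. The share of Ccnd2 was 26.5%, 19.6%, 17.2% and 23.9% in the obese and 4.95%, 7.14%, 5.74% and 5.30% in the lean tumours. These shares are ratios within a library and do not depend on the scaling between libraries. Ccnd2 thus took a larger share in every obese tumour than in any lean one, while the share of Ccnd3 overlapped (6.51% to 10.1% against 6.66% to 19.6%).

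Both E cyclin genes and all 3 kinase genes rose. Ccne1 (ENSMUSG00000002068, chromosome 7, 38097984 to 38107534), which activates Cdk2 at the G1/S boundary, stood at 58.2, 27.1, 31.8 and 48.7 against 9.87, 20.1, 10.8 and 8.13 CPM without overlap (1.76 ± 0.36, edgeR adjusted p = 0.00487). Ccne2, the second E cyclin, stood at 31.1, 33.2, 34.1 and 31.2 against 14.4, 27.3, 12.2 and 10.0 CPM. Its obese values were nearly equal and just above lean replicate 2 (1.02 ± 0.30, edgeR adjusted p = 0.0207). The call of Ccne2 was lost without lean replicate 1 (edgeR adjusted p = 0.0548) or 3 (0.0619), over all alternatives 5.05e-05 to 0.0619.

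Cdk6 (ENSMUSG00000040274, chromosome 5, 3341485 to 3531008), a partner of the D cyclins, showed the largest change of the kinases. It stood at 12.6, 22.8, 9.67 and 14.9 against 2.19, 1.86, 2.01 and 1.72 CPM, a log2 change of 2.95 ± 0.31 or 7.72-fold (edgeR adjusted p = 0.000354). Cdk4 (ENSMUSG00000006728, chromosome 10, 127063534 to 127067920), the other D cyclin kinase, stood at 460.5, 395, 411 and 429 against 263, 262, 259 and 259 CPM. The lean values were nearly equal (261 ± 1.99 CPM, SD, n = 4), and every obese value was above them (0.70 ± 0.09, edgeR adjusted p = 0.000873). Per length Cdk6 was the lowest of all 43 members in both groups, and made up 0.543% to 1.32% of Cdk4 plus Cdk6 RNA in obese and 0.154% to 0.193% in lean tumours. Cdk2, the E cyclin kinase, stood at 72.3, 57.9, 60.6 and 57.5 against 38.8, 48.2, 36.4 and 37.1 CPM (0.63 ± 0.14, edgeR adjusted p = 0.00620), again without overlap.

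**Figure D2:**
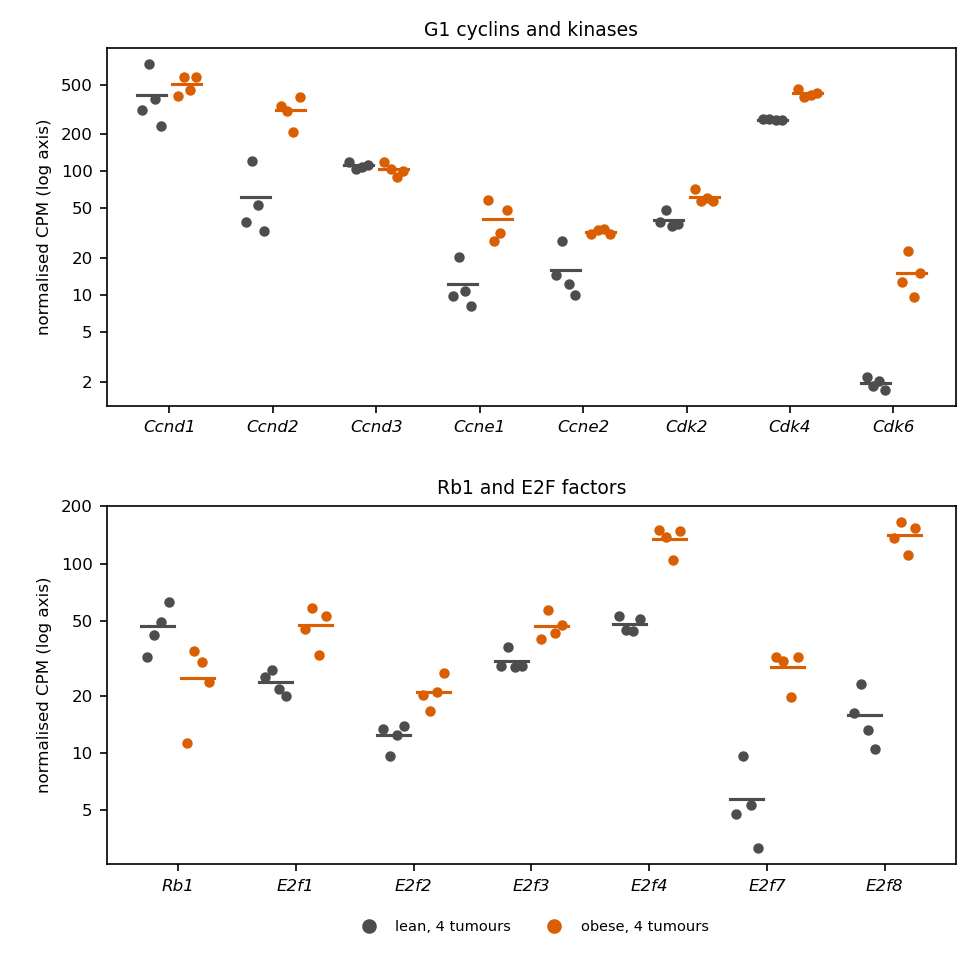
Normalised CPM on a log axis of the G1 cyclins and kinases (top) and of Rb1 and the E2F factors (bottom), with 1 point per tumour and a bar at the group mean. Groups of 4 do not overlap for Ccnd2, Ccne1, Ccne2, Cdk2, Cdk4, Cdk6 and the 6 E2F genes, and they overlap for Ccnd1, Ccnd3 and Rb1.

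Rb1 (ENSMUSG00000022105, chromosome 14, 73183673 to 73325822), the repressor that these kinases inactivate, stood at 11.4, 34.6, 30.1 and 23.7 against 32.2, 42.3, 49.4 and 62.6 CPM. Obese values were lower on average but overlapped the lean ones through obese replicate 2, and Rb1 did not pass (−0.90 ± 0.35, edgeR adjusted p = 0.0527). It passed as lower in 11 of 18 alternatives (adjusted p over all of them 0.00480 to 0.113), among them the fits without obese replicate 2 (edgeR adjusted p = 0.0437) and without lean replicate 1 (0.0371).

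All 6 E2F members rose, with no overlap between groups in any of them. E2f8 and E2f7 code for atypical E2F proteins that repress E2F targets late in S phase. E2f8 (ENSMUSG00000046179, chromosome 7, 48866429 to 48881596) stood at 137, 165, 111 and 154 against 16.3, 23.3, 13.3 and 10.5 CPM, the largest change of all members (3.16 ± 0.27, 8.93-fold, edgeR adjusted p = 0.000212). E2f7 (ENSMUSG00000020185, chromosome 10, 110745439 to 110787384) stood at 32.0, 30.5, 19.9 and 32.0 against 4.76, 9.62, 5.35 and 3.18 CPM (2.32 ± 0.36, edgeR adjusted p = 0.00157). E2f4 (ENSMUSG00000014859, chromosome 8, 105297663 to 105305370), whose product mainly represses in resting cells with the pocket proteins, stood at 151, 138, 104 and 148 against 52.7, 44.5, 44.3 and 50.8 CPM (1.49 ± 0.15, edgeR adjusted p = 0.000287). The activators had smaller changes. E2f1 stood at 45.4, 58.5, 32.9 and 52.7 against 25.3, 27.6, 21.9 and 19.9 CPM (1.0 ± 0.20, edgeR adjusted p = 0.00457). E2f2 stood at 20.3, 16.6, 20.9 and 26.5 against 13.4, 9.73, 12.5 and 13.99 CPM (0.76 ± 0.20, edgeR adjusted p = 0.0127). E2f3 stood at 40.0, 56.8, 42.98 and 47.5 against 28.9, 36.5, 28.6 and 28.7 CPM (0.61 ± 0.15, edgeR adjusted p = 0.0107), and its change was 0.40 with upper quartile factors, where the call held (0.0399).

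Per length, E2f4 was the most abundant of the 6 E2F members in every tumour, with 46.0% to 53.0% of their summed RNA in obese and 44.3% to 55.3% in lean tumours. The share of E2f8 was 21.7% to 24.7% against 5.17% to 10.5%, and that of E2f3 was 6.34% to 9.04% against 12.9% to 16.4%. The share of E2f1 was 11.9% to 15.2% against 16.9% to 21.4%. The ratio of E2f7 plus E2f8 to E2f1 plus E2f2 plus E2f3 was 1.11, 1.04, 0.997 and 1.03 in the obese and 0.219, 0.306, 0.205 and 0.158 in the lean tumours. All 4 obese tumours, obese replicate 3 included, had a higher ratio of atypical to activator E2F RNA than any lean tumour.

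**Figure D3:**
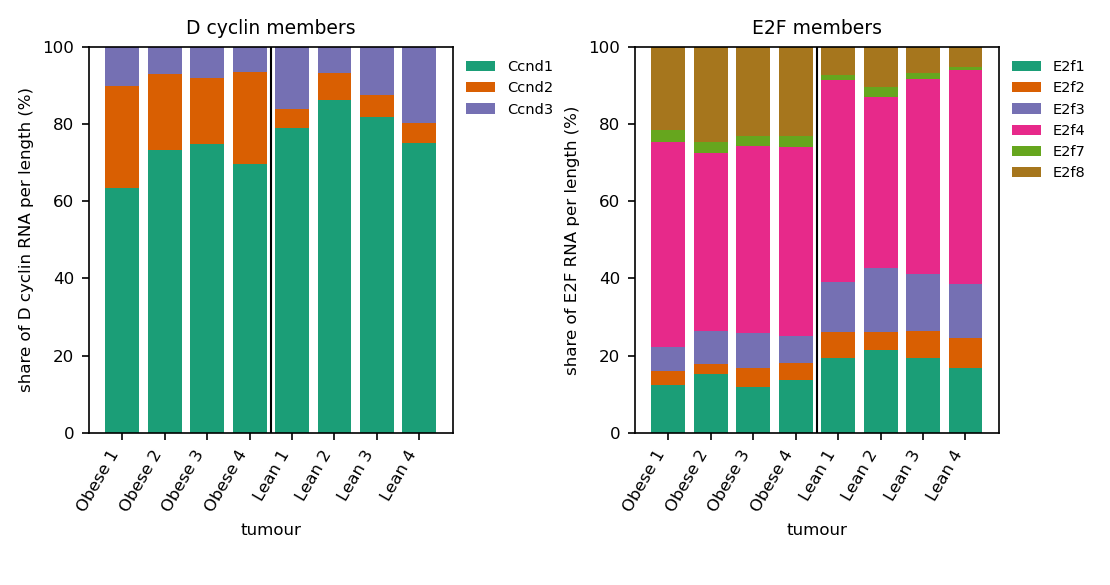
Share of each D cyclin in the summed RNA of the 3 D cyclins (left) and of each E2F member in that of the 6 E2F members, without E2f5 and E2f6 (right), per exon length, in percent, with 1 bar per tumour and a line between the 4 obese and 4 lean tumours. Ccnd2 (17.2% to 26.5% against 4.95% to 7.14%) and E2f8 (21.7% to 24.7% against 5.17% to 10.5%) take larger shares in the obese tumours.

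Promoters of many of these genes are known targets of E2F factors, so the reference sequence around their start sites is shown. RefSeq promoters (GRCm38.p6, 250 bases before to 50 after the start site) were at hand for 32 members. An E2F motif, searched on both strands as TTTCCCGC or TTTGGCGC (on the other strand GCGGGAAA or GCGCCAAA), was found in 14 of them (43.8%) and in 486 of 27025 genes with a promoter in that table (1.8%). Among tested genes with a promoter there the share was 3.18% (364 of 11440), and among those higher in obese tumours 4.37% (157 of 3590). The motif was found in 13 of 27 members that rose (48.1%), in 1 of 3 that fell and in 0 of 2 that did not pass. In all these shares a gene with more than 1 promoter counted when any of them held a match. E2f2, E2f3 and Mcm7 each have another promoter without a match. No matches share a base, overlap with other motifs was not examined, and a match is a description, not a binding site. The 16 matches are given with up to 11 bases on either side on the gene's own strand, 5′ to 3′. Capitals mark the motif or its reverse complement, and coordinates are those of the stretch printed.
Cdc6 (chr11:98908002-98908031, plus strand): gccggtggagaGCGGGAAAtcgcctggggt
Cdk2 (chr10:128705173-128705202, minus strand): aaccaggaactGCGGGAAAgttgtgcagct
Cdt1 (chr8:122568036-122568064, plus strand): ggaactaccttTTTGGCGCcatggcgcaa
E2f2 (chr4:136172302-136172323, plus strand): gcggcatatagTTTGGCGCtaa
E2f3 (chr13:29986056-29986085, minus strand): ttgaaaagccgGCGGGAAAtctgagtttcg
E2f7 (chr10:110745230-110745259, plus strand): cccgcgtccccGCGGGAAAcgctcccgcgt
Gins3 (chr8:95633507-95633536, plus strand): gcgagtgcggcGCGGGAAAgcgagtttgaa
Mcm3 (chr1:20820275-20820304, minus strand): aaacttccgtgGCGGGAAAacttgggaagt
Mcm3 (chr1:20820263-20820285, minus strand): acttgggaagtTTTGGCGCcaag
Mcm5 (chr8:75109349-75109378, plus strand): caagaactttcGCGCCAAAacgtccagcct
Mcm6 (chr1:128359797-128359826, minus strand): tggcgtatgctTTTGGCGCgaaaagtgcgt
Mcm6 (chr1:128359734-128359763, minus strand): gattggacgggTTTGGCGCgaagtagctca
Mcm7 (chr5:138172030-138172059, minus strand): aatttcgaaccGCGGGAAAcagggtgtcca
Pola1 (chrX:93632275-93632304, minus strand): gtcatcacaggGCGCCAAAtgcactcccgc
Pold1 (chr7:44548766-44548787, minus strand): cgtatcttgtgGCGGGAAAagc
Rfc3 (chr5:151651190-151651219, minus strand): ctttcgcgctcGCGGGAAAactctactgtc
Cdt1, E2f7 and Pold1 had the smallest p among members with a motif. Rfc3 has the motif at its start site and was the only member of the 14 that fell. In E2f7 the match lies 198 bases before the start site, and in Mcm6 there are 2, at 110 and 47 bases before it. To show the setting of matches that lie before the start site, of which Mcm6 was chosen after its values were seen, the 250 bases before both start sites read as follows.
E2f7 (chr10:110745189-110745438, plus strand): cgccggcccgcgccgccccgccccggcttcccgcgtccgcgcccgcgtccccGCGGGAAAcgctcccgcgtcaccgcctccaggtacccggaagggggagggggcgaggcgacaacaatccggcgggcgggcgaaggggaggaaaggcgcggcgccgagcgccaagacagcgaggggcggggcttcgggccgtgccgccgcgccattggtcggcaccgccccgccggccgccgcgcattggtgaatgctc
Mcm6 (chr1:128359706-128359955, minus strand): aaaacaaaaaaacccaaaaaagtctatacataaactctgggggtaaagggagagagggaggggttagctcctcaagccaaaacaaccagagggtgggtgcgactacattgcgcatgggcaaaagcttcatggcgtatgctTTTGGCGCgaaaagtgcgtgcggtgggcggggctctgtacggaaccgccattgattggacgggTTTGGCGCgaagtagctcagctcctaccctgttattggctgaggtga

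All 4 members that mark and license origins rose, without overlap between the groups. Of the origin recognition genes outside the members, Orc2, Orc4 and Orc5 rose, while Orc3 overlapped and did not pass (0.17 ± 0.17, edgeR adjusted p = 0.408). Cdt1 (ENSMUSG00000006585, chromosome 8, 122568015 to 122573554), which brings the MCM ring to the origin and carries the motif shown above, stood at 123, 128, 65.5 and 105 against 35.9, 28.1, 34.6 and 28.4 CPM. Obese replicate 3 was the lowest of the obese tumours but well above the lean ones (1.73 ± 0.22, 3.32-fold, edgeR adjusted p = 0.000733). Cdc6, the ATPase that works with it, stood at 48.1, 32.6, 35.0 and 47.5 against 20.7, 27.2, 15.9 and 12.7 CPM (1.09 ± 0.26, edgeR adjusted p = 0.00876). Of the origin recognition subunits, Orc6 changed by 1.14 ± 0.12 (mean ± SD 90.1 ± 8.16 against 40.8 ± 4.08 CPM, edgeR adjusted p = 0.000339) and Orc1 by 1.19 ± 0.25 (19.2 ± 4.35 against 8.40 ± 2.22 CPM, edgeR adjusted p = 0.00574).

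All 6 subunits of the MCM ring rose, by unequal amounts. Mcm2 (ENSMUSG00000002870, chromosome 6, 88883474 to 88898780) stood at 163, 133, 116 and 149 against 59.5, 70.7, 59.6 and 46.5 CPM (1.25 ± 0.16, edgeR adjusted p = 0.000788). Mcm3 stood at 219.9, 198, 176 and 257 against 94.9, 122, 77.9 and 69.6 CPM (1.22 ± 0.20, edgeR adjusted p = 0.00216). Mcm6 stood at 302, 363, 271 and 375 against 163, 205, 136 and 127 CPM (1.06 ± 0.19, edgeR adjusted p = 0.00267). These 3 showed the largest changes of the ring. Mcm5 stood at 201, 170.4, 163 and 206 against 111, 147, 102 and 83.5 CPM (0.74 ± 0.18, edgeR adjusted p = 0.0101). Mcm4 stood at 139, 128, 109 and 142 against 71.3, 118, 67.8 and 54.1 CPM (0.74 ± 0.24, edgeR adjusted p = 0.0283). Mcm4 was the only ring gene whose groups overlapped, through lean replicate 2. Mcm7 (ENSMUSG00000029730, chromosome 5, 138164583 to 138172422) stood at 155, 146, 144 and 163 against 112, 119.9, 99.9 and 91.1 CPM and had the smallest change (0.52 ± 0.12, edgeR adjusted p = 0.00672), or 0.34 with library size only and 0.31 with upper quartile factors, where it still passed.

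The call of Mcm4 was lost with library size only (edgeR adjusted p = 0.0858) and with upper quartile factors (0.0773). It was also lost without obese replicates 1, 2 or 4 (0.0582, 0.0507 and 0.0646) and without lean replicates 1, 3 or 4 (0.0775, 0.0868 and 0.0765), over all alternatives 0.000129 to 0.0868. The ring holds its 6 proteins in equal number, and per length their RNA levels differed. Mcm6 was the highest (mean ± SD 224 ± 39.1 in obese and 115 ± 34.7 in lean tumours) and Mcm2 the lowest by group mean (64.0 ± 8.87 and 28.8 ± 7.01). The ratio of the highest to the lowest subunit was 2.77 to 4.06 in obese and 3.40 to 4.32 in lean tumours, with overlap.

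Among the factors that activate the ring, Mcm10, which helps to start unwinding, showed the largest change. It stood at 85.0, 66.6, 59.8 and 87.9 against 25.2, 30.9, 21.0 and 16.1 CPM (1.68 ± 0.23, edgeR adjusted p = 0.000922). Cdc45, part of the active helicase, rose by 0.77 ± 0.20 (48.0 ± 3.75 against 28.2 ± 8.09 CPM, edgeR adjusted p = 0.0132). The 4 GINS subunits, which also act as a complex of equal parts, did not all pass the test. Gins1 stood at 37.0, 21.4, 25.9 and 30.6 against 14.8, 21.6, 17.1 and 13.1 CPM and rose (0.79 ± 0.23, edgeR adjusted p = 0.0186). Gins3 stood at 14.6, 19.3, 18.4 and 21.5 against 11.8, 16.2, 11.3 and 10.1 CPM and rose (0.58 ± 0.21, edgeR adjusted p = 0.0411). Gins4 stood at 47.1, 53.2, 55.2 and 64.0 against 57.9, 52.8, 53.7 and 49.99 CPM and did not pass (0.03 ± 0.12, edgeR adjusted p = 0.819). Gins2 did not pass either, at 0.18 ± 0.13 (37.6 ± 5.08 against 33.2 ± 1.74 CPM, edgeR adjusted p = 0.247). The groups overlapped for all 4. The changes of Gins2 and Gins4 lay around 0 over the alternatives, from −0.03 to 0.32 and from −0.18 to 0.39.

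Both GINS calls were fragile. That of Gins1 was lost with library size only (edgeR adjusted p = 0.0586), with upper quartile factors (0.0561) and without lean replicates 1, 3 or 4 (0.0575, 0.0531 and 0.0609), over all alternatives 0.000789 to 0.0609. That of Gins3 was lost in 10 of 18 alternatives, among them the fits without obese replicates 2, 3 or 4 (edgeR adjusted p = 0.0772, 0.0529 and 0.104) and without lean replicates 1, 3 or 4 (0.0880, 0.103 and 0.105), over all alternatives 0.000404 to 0.144.

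The clamp and its loader were the only role in which more genes fell (3) than rose (1). Pcna (ENSMUSG00000027342, chromosome 2, 132249162 to 132253314), the sliding clamp and a common marker of dividing cells, stood at 125, 98.5, 138 and 111 against 174, 191, 152 and 141 CPM. Every obese tumour was below every lean one, though obese replicate 3 and lean replicate 4 nearly met (−0.48 ± 0.15, edgeR adjusted p = 0.0244). Its call was lost when obese replicate 2, obese replicate 4 or lean replicate 1 was left out (edgeR adjusted p = 0.0612, 0.0694 and 0.0678, over all alternatives 0.00335 to 0.0694). Rfc3 (ENSMUSG00000033970, chromosome 5, 151642756 to 151651242), a small subunit of the clamp loader, stood at 30.4, 31.9, 48.5 and 32.5 against 59.6, 70.8, 63.8 and 62.2 CPM (−0.84 ± 0.17, edgeR adjusted p = 0.00476). Rfc2, another small subunit, stood at 66.8, 55.4, 77.6 and 63.9 against 91.7, 91.1, 96.2 and 93.3 CPM (−0.50 ± 0.12, edgeR adjusted p = 0.00902). Neither pair of groups overlapped, and both calls held in all 18 alternatives.

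Rfc4, another small subunit, went the other way. It stood at 45.9, 39.4, 45.0 and 52.3 against 27.99, 41.2, 27.9 and 24.2 CPM and rose (0.59 ± 0.19, edgeR adjusted p = 0.0259), with overlap through lean replicate 2. That call was lost with library size only (edgeR adjusted p = 0.108), with upper quartile factors (0.102), without obese replicate 4 (0.0658) and without lean replicates 1, 3 or 4 (0.0718, 0.0789 and 0.0765), over all alternatives 0.000211 to 0.108. Rfc5, the remaining small subunit, stood at 51.4, 45.5, 63.7 and 57.5 against 53.3, 54.3, 51.9 and 48.5 CPM, overlapped and did not pass (0.07 ± 0.13, edgeR adjusted p = 0.653). Within each library, and so whatever the scaling, the ratio of Rfc4 to Rfc3 per length was 3.56, 2.91, 2.19 and 3.79 in the obese and 1.11, 1.37, 1.03 and 0.919 in the lean tumours. The ratio of the mean MCM ring subunit to Pcna was 0.869, 1.06, 0.652 and 1.08 against 0.327, 0.383, 0.331 and 0.310. Neither ratio overlapped between groups, so the RNA of the loader subunits, and that of ring and clamp, changed unequally.

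**Figure D4:**
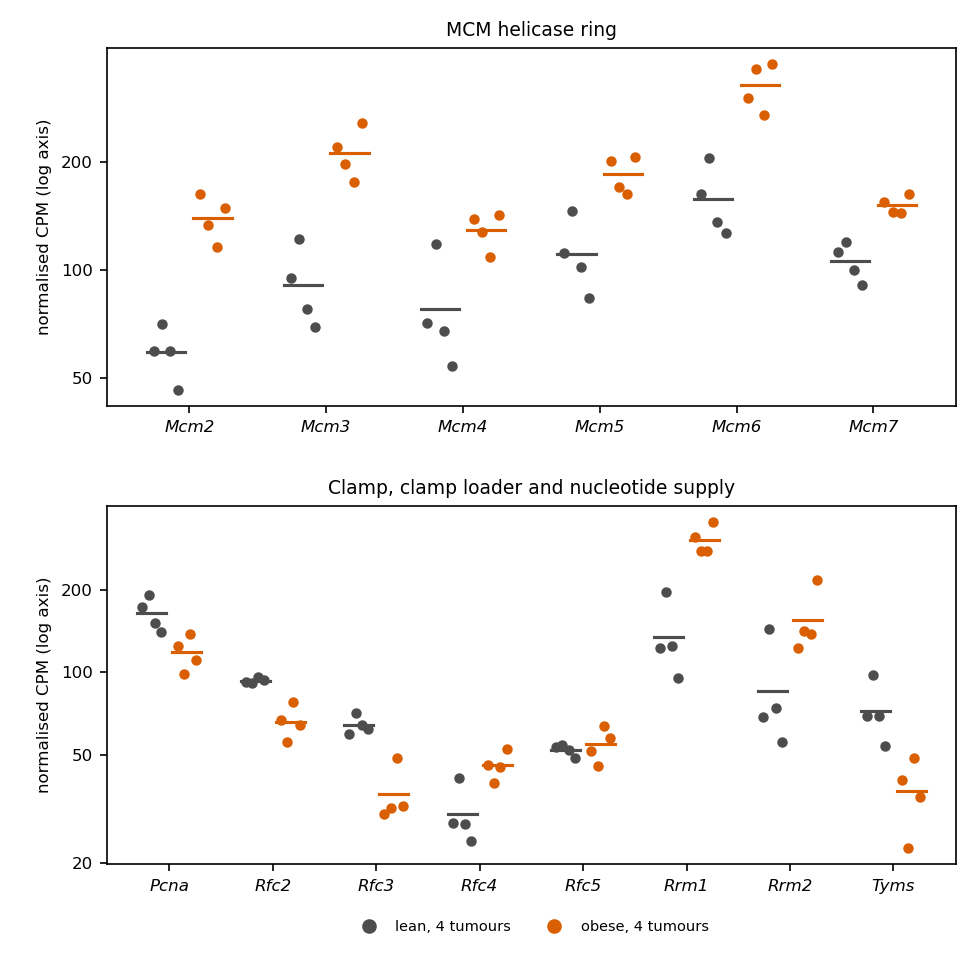
Normalised CPM on a log axis of the 6 MCM ring genes (top) and of the clamp, clamp loader and nucleotide supply genes (bottom), with 1 point per tumour and a bar at the group mean. All MCM means are higher in obese tumours, and Pcna, Rfc2, Rfc3 and Tyms are lower.

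The catalytic subunits of the replicative polymerases and the primase rose, 4 of 4. Pold1 (ENSMUSG00000038644, chromosome 7, 44532746 to 44548849), of the lagging strand polymerase delta, stood at 96.03, 82.3, 51.9 and 67.4 against 35.1, 24.9, 29.9 and 27.0 CPM (1.35 ± 0.21, edgeR adjusted p = 0.00160). Prim1, the primase that starts each fragment, stood at 77.5, 59.4, 76.7 and 71.6 against 34.4, 45.3, 33.1 and 30.6 CPM (0.99 ± 0.16, edgeR adjusted p = 0.00179). Pole, of the leading strand polymerase epsilon, stood at 54.1, 64.3, 41.2 and 66.9 against 20.6, 46.3, 24.3 and 20.4 CPM (1.02 ± 0.30, edgeR adjusted p = 0.0202). Pole was the only gene of this role whose groups overlapped, again through lean replicate 2. Pola1, of polymerase alpha, rose by 1.26 ± 0.35 (57.4 ± 13.9 against 24.0 ± 12.8 CPM, edgeR adjusted p = 0.0162). The call of Pole was lost without obese replicate 4 (edgeR adjusted p = 0.0511) and without lean replicates 1, 3 or 4 (0.0565, 0.0612 and 0.0591), over all alternatives 4.03e-05 to 0.0612.

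Genes that supply nucleotides split. Rrm1 (ENSMUSG00000030978, chromosome 7, 102441695 to 102469771), the large subunit of ribonucleotide reductase, stood at 312, 277, 278 and 353 against 123, 197, 124 and 95.4 CPM and rose (1.18 ± 0.22, edgeR adjusted p = 0.00355). Rrm2, its small subunit, stood at 123, 142, 138 and 216 against 68.5, 144, 73.9 and 55.6 CPM, with lean replicate 2 inside the obese range (0.86 ± 0.32, edgeR adjusted p = 0.0478). Tyms (ENSMUSG00000025747, chromosome 5, 30058202 to 30073617), thymidylate synthase, stood at 40.3, 22.8, 48.7 and 34.9 against 69.2, 97.6, 69.1 and 53.6 CPM and fell (−0.98 ± 0.26, edgeR adjusted p = 0.0142), with all obese tumours below all lean ones. The ratio of Rrm1 to Tyms per length was 4.29, 6.72, 3.15 and 5.59 in the obese and 0.983, 1.116, 0.994 and 0.983 in the lean tumours. The call of Rrm2 was lost in 10 of 18 alternatives, among them the fits without obese replicates 1, 2 or 4 (edgeR adjusted p = 0.0517, 0.0703 and 0.119) and without lean replicates 1, 3 or 4 (0.112, 0.116 and 0.113), over all alternatives 0.000259 to 0.119. Its change was 1.40 with limma-voom and quality weights.

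The order of levels per length changed for several members. Ccnd1 (339 ± 69.1 in obese and 304 ± 190.3 in lean tumours) and Cdk4 (414 ± 21.6 and 269.8 ± 22.9) held the first 2 places in both groups, and did not differ beyond their spread in the lean tumours. Tyms stood in place 18 of 43 in lean and 37 in obese tumours, Rfc3 in 13 and 29 and Rb1 in 26 and 41. E2f8 stood in place 37 in lean and 17 in obese tumours, and Ccnd2 in 28 and 14.

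**Figure D5:**
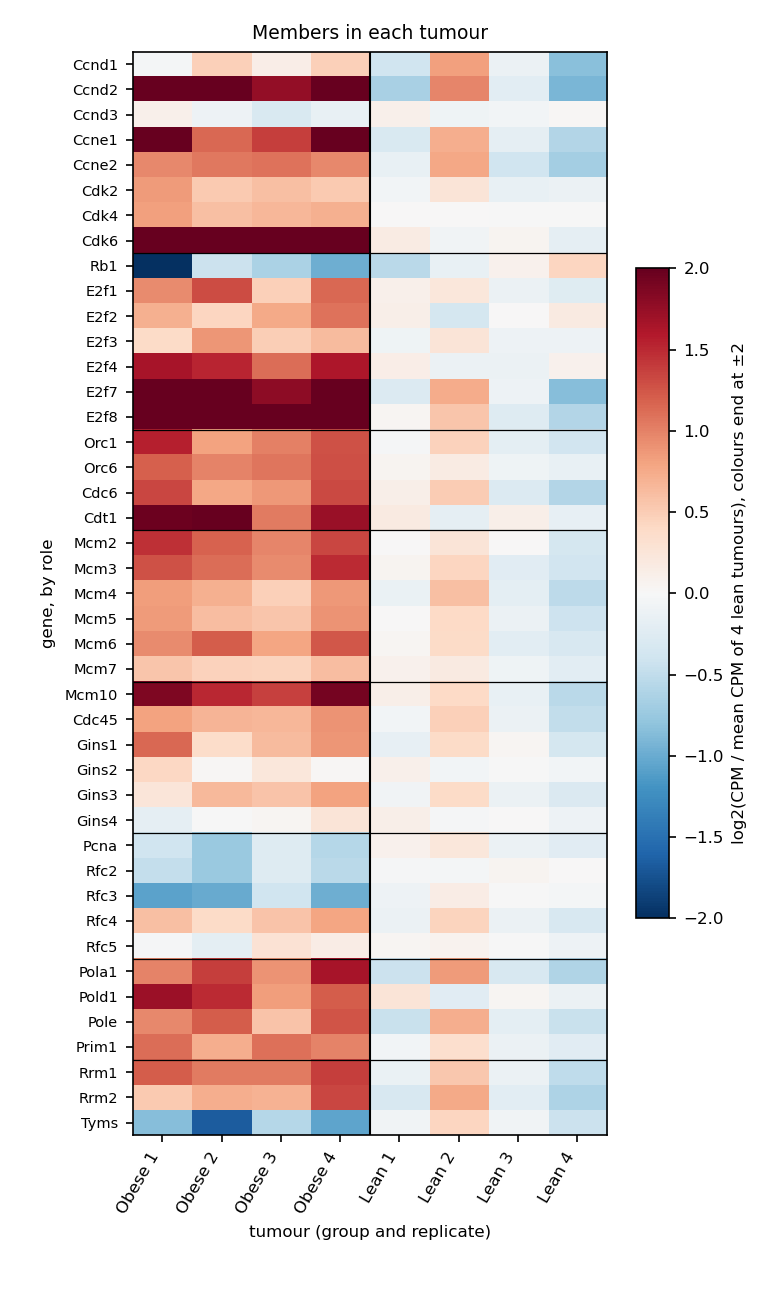
Each row is a gene and each column a tumour, coloured by log2 of its CPM over the mean of the 4 lean tumours, with colours ending at ±2 and black lines between roles and between groups. Among the lean tumours replicate 2 is highest in 32 of 43 rows and replicate 4 lowest in 32, and the clamp, Rfc2, Rfc3 and Tyms are blue in all 4 obese columns.

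The lean tumours differed among themselves in a way that ran across the list. The median over the 43 members of log2 CPM over the lean mean was −0.021, 0.375, −0.114 and −0.314 in lean replicates 1 to 4 and 0.938, 0.729, 0.665 and 0.999 in obese replicates 1 to 4. Lean replicate 2 was the highest lean tumour for 32 members (74.4%) and for 38.8% of all tested genes. Lean replicate 4 was the lowest for 32 members (74.4%) and for 24.4% of all tested genes. Obese replicate 3, which stood apart on the principal component, was the lowest obese tumour for 19 members (44.2%) and for 26.0% of all tested genes. Without lean replicate 2 the members' median was 1.08, with 34 members higher and 4 lower. Without obese replicate 3 it was 0.92, with 32 higher and 4 lower.

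Further genes of the pathway were taken from lists made by function, with earlier results of these data known. Of 45 other replication factors 32 rose, 2 fell and 11 did not pass (71.1% higher, background 30.9%, median log2 change 0.86). The 4 with the smallest p were Rnaseh2a (RNase H2, 1.47 ± 0.11), Pola2 (the second subunit of polymerase alpha, 2.06 ± 0.16), Asf1b (a histone chaperone, 1.45 ± 0.14) and Topbp1 (an activator of origin firing, 1.92 ± 0.19). Their edgeR adjusted p were 0.000166, 0.000181, 0.000273 and 0.000287. The 2 that fell were Pole3, a small subunit of polymerase epsilon, at 45.3, 47.3, 69.8 and 50.9 against 108, 74.7, 104 and 107 CPM (−0.88 ± 0.18, edgeR adjusted p = 0.00524), and Tk1, the thymidine salvage kinase, at 121, 111, 184 and 124 against 192, 179.5, 182 and 208 CPM (−0.50 ± 0.17, edgeR adjusted p = 0.0352). The call of Tk1 was lost with no filter (edgeR adjusted p = 0.0651), without obese replicates 1, 2 or 4 (0.0893, 0.0894 and 0.0951) and without lean replicates 1, 3 or 4 (0.0565, 0.0508 and 0.0689), over all alternatives 0.000545 to 0.0951. Tk1 and Tyms make thymidine monophosphate by salvage and by synthesis.

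Of 20 other genes of G1/S control 17 rose, 0 fell and 3 did not pass (85.0% higher, median 0.79). At an unadjusted p under 0.05 edgeR gave 0 lower as well, while 1 was called lower by limma-voom with quality weights and by edgeR without lean replicate 2. They include Mybl2, an E2F target gene and transcription factor (2.17 ± 0.31), Ccna2, the S phase cyclin (1.73 ± 0.26), Fbxo5, an inhibitor of the anaphase-promoting complex (1.42 ± 0.19), and E2f5 (0.90 ± 0.13), with edgeR adjusted p of 0.00117, 0.00142, 0.000909 and 0.00133. Of 7 CDK inhibitor genes 2 rose (28.6%, background 30.9%) and 4 fell (57.1%, background 28.4%). The number that fell was 2 when obese replicate 1, 2, 3 or 4 or lean replicate 2 or 3 was left out. Cdkn2a stood at 0.0826, 0.115, 5.26 and 0.384 against 19.7, 38.5, 55.2 and 27.97 CPM and Cdkn2b, an inhibitor of Cdk4 and Cdk6 from the same locus, at 0.248, 0.181, 3.40 and 0.648 against 9.06, 18.9, 24.5 and 13.1 CPM. Both fell (−4.58 ± 1.33 and −3.85 ± 0.97, edgeR adjusted p = 0.0196 and 0.0113), and obese replicate 3 was the highest obese tumour for both. Without it the change of Cdkn2a was −7.44. The size of that change rests on obese values near 0, and that of obese replicate 1 lay below the 0.117 CPM that a count of 0 allows in its library. Cdkn1c and Cdkn2c, named after their values were seen, fell as well. Cdkn1c was low throughout, at 0.165 to 0.676 against 0.737 to 4.75 CPM (−2.04 ± 0.71, edgeR adjusted p = 0.0361). The groups overlapped for Cdkn2c (−0.60 ± 0.22, edgeR adjusted p = 0.0462). Cdkn1a, the p21 gene, named after its values were seen, was the 1 that did not pass (0.38 ± 0.34, edgeR adjusted p = 0.347). Cdkn1b (0.70 ± 0.20) and Cdkn2d (0.72 ± 0.16) rose (edgeR adjusted p = 0.0178 and 0.00766). The call of Cdkn1b was lost with upper quartile factors (edgeR adjusted p = 0.0601) and with offsets for GC content and exon length (0.112), over all alternatives 0.00730 to 0.112, and Cdkn2d changed by 1.17 with the latter.

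Genes of mitosis rose in 13 of 16 cases and fell in 0 (81.2% higher, median 1.21), also in 0 at an unadjusted p under 0.05. With offsets for GC content and exon length edgeR called 1 lower. Those with the smallest p were the transcription factor gene Foxm1 (1.87 ± 0.26), Top2a, a topoisomerase (2.08 ± 0.32), Bub1, a spindle checkpoint kinase (2.38 ± 0.39), and Aurkb, a mitotic kinase (1.07 ± 0.19). Their edgeR adjusted p were 0.000985, 0.00158, 0.00216 and 0.00284. Mki67, the gene of the Ki-67 antigen that is used to count dividing cells, was chosen after its values were seen. It stood at 70.0, 118, 86.3 and 149.9 against 125, 268, 130.4 and 104 CPM, with lean replicate 2 the highest, and did not pass (−0.56 ± 0.35, edgeR adjusted p = 0.192). It passed as lower with offsets for GC content and exon length (edgeR adjusted p = 0.0478, over all alternatives 0.0478 to 0.992).

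Markers of several cell types moved with the groups and their part in these results was not tested. The injected line is a breast adenocarcinoma, so the epithelial genes may be those of the tumour cells themselves and not of another cell type. Epithelial genes (8, led by Krt8 and Epcam) summed to 63.1, 287, 825 and 246 CPM in obese and 3068, 2108, 2186 and 2144 CPM in lean tumours, with Krt14 and Krt5 at 0 in obese replicate 1, and this sum was lower in every obese tumour than in any lean one. Of the 8 genes 4 fell, among them Krt8, and 4 did not pass, among them Epcam (−3.24 ± 1.55, edgeR adjusted p = 0.101). Macrophage genes (6) summed to 582 to 819 CPM in obese and 259 to 418 CPM in lean tumours. Of these Cd68, Adgre1, Mrc1 and Itgam rose, Cd163 did not pass, and Csf1r, 1 of the 2 most abundant with Cd68, fell (−0.54 ± 0.20, edgeR adjusted p = 0.0428), a call lost in 9 of 18 alternatives (adjusted p over all of them 0.00446 to 0.107). T cell genes (6, led by Lck and Cd3g) summed to 16.6 to 55.3 against 66.1 to 179 CPM. Of the T cell genes 5 fell, and Cd28 did not pass (−0.50 ± 0.25, edgeR adjusted p = 0.110). B cell genes (6, led by Cd79b and Cd79a) summed to 4.17 to 9.65 against 23.5 to 56.4 CPM, with Cr2 at 0 in all 4 obese tumours. Of the B cell genes 5 fell, while Pax5 was higher on average and did not pass (0.64 ± 0.40, edgeR adjusted p = 0.194). The epithelial, macrophage, T cell and B cell sums did not overlap between groups. Fibroblast genes (6, led by Col3a1 and Col1a1) spanned 1139.7 to 4903 against 1124 to 1479.9 CPM, with Col3a1 and Pdgfra higher (1.73 ± 0.44 and 1.44 ± 0.37, edgeR adjusted p = 0.0116 and 0.0117) and Dcn and Lum lower (−1.72 ± 0.45 and −1.32 ± 0.35, edgeR adjusted p = 0.0127 and 0.0138). Pdgfra, Dcn and Lum were named after their values were seen. Endothelial genes (6, led by Pecam1 and Cdh5) spanned 121 to 178 against 135 to 308 CPM. Of these Tek, Tie1 and Emcn fell (−1.29 ± 0.40, −1.16 ± 0.27 and −1.07 ± 0.35, edgeR adjusted p = 0.0247, 0.00762 and 0.0308), and 3 did not pass, Pecam1 and Cdh5 among them. Adipocyte genes (6, led by Cfd and Adipoq) spanned 6.81 to 165 against 71.8 to 265 CPM and skeletal muscle genes (6, led by Acta1 and Ckm) 5.49 to 189 against 20.2 to 1282 CPM. The fibroblast, endothelial, adipocyte and muscle sums overlapped. Lean replicate 2 was the highest lean tumour for 6 of 6 endothelial, 6 of 6 adipocyte, 6 of 6 B cell and 16 of 16 mitotic genes. It was so for 2 of 8 epithelial, 2 of 6 macrophage, 2 of 6 fibroblast, 0 of 6 T cell and 0 of 6 muscle genes, and for 38.8% of all tested genes.

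Reads of some members could be shared with other genes. Processed pseudogenes named after Pcna (2) and Ccnd3 (1) had a count of 0 in every library. Bodies of protein-coding genes on the opposite strand overlap, among others, Rfc4 (Eif4a2, with a total count 537% of that of Rfc4), Orc6 (Vps35, 395%) and Ccne2 (Ints8, 279%). The same holds for Rfc5 (Wsb2, 245%), Cdc45 (Ufd1, 196%), Rb1 (Rcbtb2, 181%), Mcm7 (Cops6, 122%) and Gins2 (Gse1, 114%). The libraries were stranded, and the strand setting of the counting is not given in the sources used here.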

How the data were processed

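Per the labels' protocols, total RNA of snap-frozen tumours was made into stranded TruSeq libraries. The tools named in the submitters' processing notes are STAR 2.5.2b, cutadapt 1.12, HTSeq, bcl2fastq 2.18.0.12 and CASAVA 1.8, with the build mm10. The annotation and strand setting are not given in the sources used here. The authors deposited raw counts per Ensembl gene, 1 column per tumour, and columns were matched to samples by the number in each title. Symbols, gene coordinates (1-based, GRCm38) and union exon lengths came from GENCODE M21, and 181 of 181 listed genes matched, 138 of them outside the 43 members. Genes were filtered with filterByExpr (minimum count 10, minimum total 15), scaled by TMM and tested with edgeR 4.0.16 (robust quasi-likelihood F test, two-sided, R 4.3.3) with Benjamini-Hochberg adjustment over all 14887 genes. SE is the log2 change over the square root of F. Replicate numbers follow accession order and pair nothing. A count of 0 allows up to 3 counts, or 0.0450 to 0.117 CPM, for counting error alone.

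The members, lists and tests were chosen with earlier results of these data known. Every member is named, and from each further pathway list the 4 genes with the smallest p and those that passed against the direction of most of their list. From each cell type list the 2 most abundant genes are named. The other marker genes, Orc2, Orc3, Orc4, Orc5, Mki67, Cdkn1a, Cdkn1c, Cdkn2c and the Mcm6 promoter were chosen after their values were seen. Alternatives were DESeq2's size factors, library size only, upper quartile factors, no filter, 1 CPM in 4 tumours, limma-voom (limma 3.58.1) without and with quality weights, the DESeq2 1.42.0 Wald test, 1 surrogate variable (sva 3.50.0), loess offsets for GC content and exon length (14759 genes) and leaving out each tumour. On data simulated for obese against lean (14748 genes), 8 of 100 genes with a 2-fold change and 62 of 100 with a 4-fold change passed edgeR's test, with 3 unchanged genes called and 0 with the wrong sign. Only those genes were changed there, whereas 59.2% of all tested genes passed in the real data. The adjustment was therefore stricter in the simulation, and its shares do not give the share of changes found in the real comparison. Promoters came from RefSeq (GRCm38.p6), of which only matches and stretches before the start site are printed, and no protein sequence was used here.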

Additional observations from a re-analysis of the deposited data

Results flagged for a closer look

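Of 86 sets of 4 values (43 members in 2 groups), 5 held a tumour whose gap to the other 3 was above Dixon's 95% critical value, and chance flags about 1 set in 20. Lean replicate 2 stood high for E2f3 (36.5 CPM, the others 28.6 to 28.9), for Pola1 (43.1 CPM, the others 15.8 to 19.1) and for Pole (46.3 CPM, the others 20.4 to 24.3). Obese replicate 3 stood low for E2f7 (19.9 CPM, the others 30.5 to 32.0) and high for Rfc3 (48.5 CPM, the others 30.4 to 32.5), in both cases on the side of the lean values.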

How the results depend on the processing

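Of 37 members called, 29 (26 higher and 3 lower) kept their call in all 18 alternatives, and 0 changed sign. Leaving out 1 tumour at a time gave 26 to 34 members higher and 3 to 4 lower, and a members' median of 0.767 to 1.082. That median was 0.664 with library size only, 0.652 with upper quartile factors and 1.103 with limma-voom and quality weights. The share of higher among all called genes was 52.1%, but 42.3% with library size only (3690 higher, 5026 lower) and 41.2% with upper quartile factors (3612 and 5145). Among other replication factors the count lower was 1 with no filter and 1 to 2 without single tumours. Among other G1/S genes it was 1 with limma-voom and quality weights and 0 to 1 without single tumours, and among mitotic genes 1 with offsets for GC content and exon length. Among CDK inhibitors 1 was higher with upper quartile factors and with those offsets, and 2 were lower with 1 surrogate variable and with those offsets, against 2 to 4 without single tumours. Changes of genes that had not passed took the other sign for Ccnd3 (0.099 with those offsets), Gins2 (−0.003 with library size only, −0.03 with upper quartile factors), Gins4 (−0.15 and −0.177 with these, −0.013 with DESeq2's size factors, −0.066 with 1 CPM in 4 tumours, −0.012 with the DESeq2 Wald test, and −0.035 to 0.114 without single tumours) and Rfc5 (−0.113 with library size only, −0.138 with upper quartile factors, −0.029 with 1 CPM in 4 tumours, −0.003 to 0.157 without single tumours). The same held for Pecam1 (0.087) and Mki67 (0.003) with limma-voom and quality weights, for Col1a1 (−0.026 and −0.043 with limma-voom without and with weights, −0.442 to 0.91 without single tumours) and for Cdkn1a (−0.029 to 0.535 without single tumours). The cause of these differences was not tested. No paired analysis was possible because the labels give no shared replicate numbers. Depth, 25.7 M counts or more, put every member far above the limit that a count of 0 allows.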
